A study of Mus musculus with 6 samples.

Results

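The genes of this report encode the enzymes and the transporter that carry out the steps particular to gluconeogenesis, and 7 genes were followed of the 55487 in the deposited table. They were taken by gene name: Fbp1 and Fbp2, Pck1 and Pck2, Pcx, G6pc3 and Slc37a4. The list was built around Fbp1, which was chosen by its normalized counts in these same libraries (higher in the mutant than in the control group), so the differences between the groups for these genes are given as a description. No p-value is given for a member, and counts of members past a threshold stand only beside the share of all genes.

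RNA was measured in vascular endothelial cells (VECs) sorted from mouse retinas at postnatal day 7.5 (P7.5), 3 libraries from control and 3 from Bmal1;CKO animals. Control animals were tdTomato FL/+;Pdgf-icreER, and Bmal1;CKO animals were Bmal1 FL/FL;tdTomato FL/+;Pdgf-icreER. Animals of both groups carried the inducible Pdgf-icreER Cre transgene, which also expresses GFP, and the tdTomato reporter, and pups of both were given tamoxifen on P0.5 through P2.5. Cells positive for GFP and tdTomato were sorted, so the sort marks Cre activity and not the loss of Bmal1 in a given cell. The mice were of C57BL/6J background. Total RNA of the sorted cells, at less than a nanogram per microlitre, was amplified before the libraries were made. Libraries are numbered as the columns of the table are, with 1 to 3 the control and 4 to 6 the Bmal1;CKO animals, and values are normalized read counts, that is, reads per gene divided by the size factor of the library.

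Glycolysis breaks glucose down to pyruvate, and gluconeogenesis runs the same route backwards with its own enzymes at the irreversible steps. Pyruvate carboxylase (Pcx) makes oxaloacetate from pyruvate in mitochondria. Phosphoenolpyruvate carboxykinase turns oxaloacetate into phosphoenolpyruvate, in the cytosol (Pck1) or in mitochondria (Pck2). Fructose bisphosphatase (Fbp1, the form of liver and kidney, and Fbp2, the form of muscle) removes a phosphate from fructose 1,6-bisphosphate, against phosphofructokinase. Glucose 6-phosphate is carried into the endoplasmic reticulum by the transporter Slc37a4 and hydrolysed there by a glucose 6-phosphatase, of which G6pc3 is the widely expressed form. The complete pathway is a property of liver and kidney, and endothelial cells are known for a high rate of glycolysis.

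Between 71145068 and 104017800 reads were counted on genes per library. Control library 1 stood apart, with Pearson coefficients of 0.791 to 0.833 with the other libraries against 0.853 to 0.944 among the other 5, and with the fewest genes with a read (21598). Arntl (Bmal1), the targeted gene, had 1700, 3489 and 2928 normalized counts in control and 1779, 2747 and 2415 in Bmal1;CKO (log2 fold change -0.19, standard error 0.36). The groups overlapped, and the table holds 1 value per gene, so the floxed exon was not seen on its own. Endothelial transcripts were abundant, with 13 of 14 markers at 10 or more reads in every library. The 9 markers of microglia and macrophages were all at 10 or more reads in every library too, and their summed normalized count was 6.67 to 10.9 times the endothelial sum in control and 8.39 to 23.5 times in Bmal1;CKO. These are bulk libraries, in which more cells of a type and more RNA per cell cannot be told apart.

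Fbp1 (ENSMUSG00000069805) and Fbp2 (ENSMUSG00000021456) are neighbours on the reverse strand of chromosome 13 of GRCm38. Fbp1 runs from 62864753 to 62888282 and has 7 exon blocks with 1702 bases of exon. Fbp2 runs from 62836877 to 62858422, with 8 exon blocks and 1469 bases of exon. A gap of 6330 bases separates them. The 250 bases before the RefSeq start of each gene are shown because these are the tested members whose libraries separated by group. A further reason is that BMAL1 with CLOCK is known to bind the E-box CACGTG. This motif reads the same on both strands and is written in capitals where it occurs. The Fbp1 sequence is chr13:62888283-62888532 and the Fbp2 sequence is chr13:62858401-62858650, both from the reverse strand of GRCm38.p6, 5′ to 3′.
Fbp1: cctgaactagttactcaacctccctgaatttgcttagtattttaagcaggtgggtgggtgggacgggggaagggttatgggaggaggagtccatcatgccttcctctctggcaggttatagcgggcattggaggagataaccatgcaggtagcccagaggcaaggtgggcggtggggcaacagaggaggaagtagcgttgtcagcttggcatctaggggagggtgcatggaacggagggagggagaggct
Fbp2: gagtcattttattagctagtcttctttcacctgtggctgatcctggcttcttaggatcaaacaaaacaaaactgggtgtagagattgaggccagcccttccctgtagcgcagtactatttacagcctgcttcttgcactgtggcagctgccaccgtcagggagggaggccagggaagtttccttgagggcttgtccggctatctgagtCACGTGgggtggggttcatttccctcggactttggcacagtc
The Fbp2 window holds 1 CACGTG, which begins 42 bases before the start, and the Fbp1 window holds 0.

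All 7 genes had a RefSeq promoter, with 10 annotated starts in all. CACGTG lay in the 250 bases before 3 of these starts, those of Fbp2 and G6pc3 and 1 of the 2 of Pcx, whereas 6.02% of 32851 mouse promoter windows of this length hold it. In G6pc3, 2 copies begin 99 and 79 bases before the RefSeq start (102189699), within chr11:102189583-102189642 on the forward strand. GENCODE starts this gene at 102189620, so by that annotation the second copy lies inside the gene. In Pcx the copy begins 248 bases before the start, within chr19:4510222-4510246 on the forward strand. Both stretches are printed to show the motif in members whose groups overlapped.
G6pc3: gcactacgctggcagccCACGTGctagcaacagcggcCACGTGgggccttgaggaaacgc
Pcx: ccCACGTGaggctttcaagaaaaga
These matches describe the letters of the windows. No binding was measured in these libraries.

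Fbp1 reads were nearly absent from the control libraries and present in all 3 Bmal1;CKO libraries. Control libraries 1, 2 and 3 had 1, 0 and 0 reads, or 1.23, 0 and 0 normalized counts. Bmal1;CKO libraries 4, 5 and 6 had 166, 202 and 221 reads, or 233, 174 and 182 normalized counts. Every Bmal1;CKO library lay above every control library, and the 3 were within a narrow range of each other (197 ± 32.1, SD, n = 3). Pooled over libraries, 589 reads stood against 1, and the ratio of the rates was 629 with a 95% interval of 112 to 24870 (exact binomial, Clopper-Pearson). Amplified reads are not independent molecules, and the interval holds for the error of counting alone. The log2 fold change on log2(normalized count + 1) was 7.23 (standard error 1.05). It lay between 7.04 and 7.61 with 1 library left out, and between 4.30 and 9.20 over the other settings. With 0.5 or 10 in place of 1 added before the logarithm it was 8.01 or 4.30, and DESeq2, which adds no such count, gave 9.20.

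Fbp2, the muscle form, followed the same split at a lower level per kilobase of exon. It had 0 reads in each of the 3 control libraries. Bmal1;CKO libraries 4, 5 and 6 had 46, 12 and 26 reads, or 64.7, 10.4 and 21.4 normalized counts. The lowest Bmal1;CKO library thus had 12 reads where no control library had any. Against a control level set at 3 reads in each library, the mean of libraries 4 to 6 (32.2 ± 28.7, SD, n = 3) was at least 11.2-fold higher, and library 4 supplied most of that mean. The log2 fold change was 4.68 (standard error 1.25), 4.00 without library 4 and 5.26 without library 5.

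Fbp1 and Fbp2 did not keep to a fixed ratio among the Bmal1;CKO libraries. Per kilobase of exon, Fbp1 was 3.12 times Fbp2 in library 4, 14.5 times in library 5 and 7.34 times in library 6. Library 4 had the highest normalized count of both genes and the fewest reads in all. In reads as counted, library 4 had the fewest of Fbp1 among the 3. Reads of one gene counted on the other are limited by sequence. The coding sequences were identical at 70.7% of 1012 aligned bases, the longest exact run shared by their annotated transcripts was 23 bases, and 0 of 1750 stretches of 50 bases from Fbp1 transcripts occurred in a transcript of another gene.

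**Figure D1:**
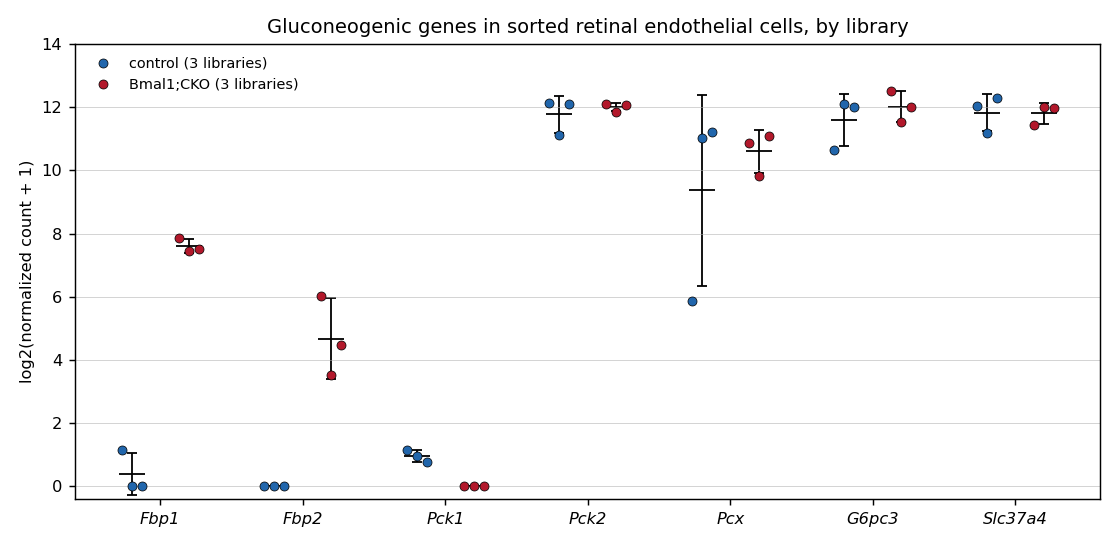
Each point is 1 library, on log2(normalized count + 1), for control (blue, libraries 1 to 3 from left to right) and Bmal1;CKO (red, libraries 4 to 6), and lines and bars give the mean and SD of 3 libraries. Fbp1 and Fbp2 separate by group, Pck1 sits near 0 throughout, and the groups overlap in Pck2, Pcx, G6pc3 and Slc37a4, where 1 control library stands far below in Pcx.

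The switch from at most 1 read to a clear signal was uncommon but not particular to Fbp1. A gene entered the tests with 10 or more reads in 3 or more of the libraries, which 20459 genes met. Of these, 77 (0.376%) had at most 1 read in every control library and at least 10 in every Bmal1;CKO library, and 33 of the 77 were protein coding. The reverse pattern was found in 3 genes (0.0147%). Fbp1 and Fbp2 passed the filter on reads through the Bmal1;CKO libraries alone.

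The tested genes around Fbp1 were followed in turn, a choice made after their values were seen. Within 500 kb there were 18 tested genes, of which 16 were other than Fbp1 and Fbp2. The nearest with a protein product, Aopep, an aminopeptidase gene that begins 76610 bases beyond Fbp1, had 4728, 2939 and 4232 normalized counts in control and 4072, 3723 and 4367 in Bmal1;CKO. Its log2 fold change was 0.06 (standard error 0.27), with groups that overlapped. On the other side, Gm5141 and Platr25 had log2 fold changes of -0.26 (standard error 0.46) and -0.20 (standard error 0.40). The DNA repair gene Fancc, farther out, was at 0.09 (standard error 0.41). The groups did not overlap in 4 of the 16, where 11.2% of all tested genes had groups that did not overlap, and these 4 differed in sign. The read counts of 6720489N17Rik were lower in Bmal1;CKO (log2 fold change -1.45, standard error 0.66), as were those of Gm47585 (-5.10, standard error 1.28). Gm16133 (3.47, standard error 1.21) and Gm36298 (2.90, standard error 1.88) were higher. Gm36298 separated narrowly, at 0, 116 and 150.0 normalized counts in control and 155 to 269 in Bmal1;CKO, with the 0 in control library 1. The nearest tested gene of all, the pseudogene Gm7049 beyond Fbp2, was at 0.69 (standard error 1.20), with 45.5 normalized counts in control library 1 and 598 to 1303 in the other 5, and its groups overlapped.

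**Figure D2:**
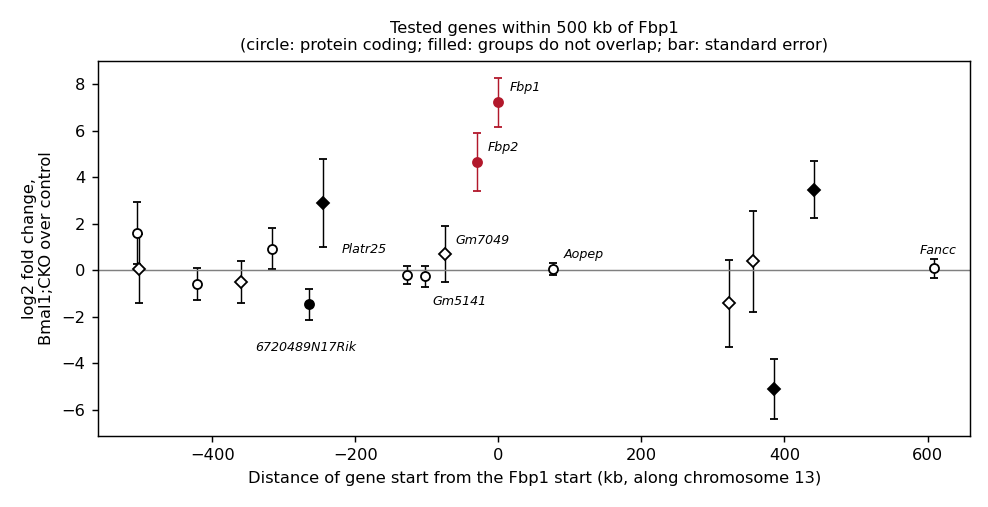
Log2 fold change (Bmal1;CKO over control, with standard error) of the 18 tested genes within 500 kb, against the distance in kb of the start of each from the start of Fbp1. Circles are protein-coding genes, diamonds are others, and filled symbols have groups that did not overlap. Fbp1 (7.23) and Fbp2 (4.68) have the highest values, while Aopep, Gm5141 and Platr25 beside them lie at 0.06, -0.26 and -0.20.

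Phosphoenolpyruvate carboxykinase was read almost wholly from the mitochondrial form. Pck1 (ENSMUSG00000027513, chromosome 2, 173153048 to 173159273), the cytosolic enzyme and a main point of control of gluconeogenesis in liver, had 1 read in each control library and 0 in each Bmal1;CKO library. All of these counts are at or under the floor of 3 reads, so Pck1 was not tested and no fold is given. A count of 0 allows up to 4.22, 2.59 and 2.47 normalized counts in libraries 4, 5 and 6. Pck2 (ENSMUSG00000040618, chromosome 14, 55540266 to 55551242), the mitochondrial enzyme, had 4460, 2201 and 4377 normalized counts in control and 4359, 3676 and 4251 in Bmal1;CKO. Control library 2 was the lowest of the 6, and the other 5 lay close together. The log2 fold change was 0.22 (standard error 0.33), and -0.11 without control library 2. Of the 50-base stretches of Pck2 transcripts, 1.69% also occurred in transcripts of other genes, so a small part of its reads is uncertain. Its annotated span also overlaps the antisense gene Gm10876, which had at most 2 reads in any library.

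Pcx (ENSMUSG00000024892, chromosome 19, 4510472 to 4621752), which supplies oxaloacetate, was the most uneven member. It had 57.8, 2071 and 2364 normalized counts in control libraries 1, 2 and 3, and 1869, 911 and 2189 in Bmal1;CKO libraries 4, 5 and 6. Control library 1 was far below all others, and the other 5 overlapped between the groups. The log2 fold change was 1.23 (standard error 1.33) with all libraries and -0.51 without control library 1. It was 0.14 to 0.15 in edgeR and DESeq2 and 0.96 in limma-voom. Lrfn4, a gene on the opposite strand within the span of Pcx, shares no annotated exon base with it. It was low in the same library, at 146 normalized counts in control library 1 against 2927 to 4800 in the other 5.

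The last steps, at glucose 6-phosphate, had the highest levels of the set per kilobase of exon. Their place above Pck2 rests on the exon length of 7806 bases taken for Pck2. G6pc3 (ENSMUSG00000034793, chromosome 11, 102189620 to 102194081), a phosphatase of the endoplasmic reticulum, had 1600, 4433 and 4118 normalized counts in control and 5880, 2953 and 4106 in Bmal1;CKO. Control library 1 was again the lowest. Its log2 fold change was 0.43 (standard error 0.46), and -0.04 without that library. Slc37a4 (ENSMUSG00000032114, chromosome 9, 44396852 to 44402968), the transporter that feeds the phosphatase, had 4180, 2308 and 4964 normalized counts in control and 2748, 4150 and 4043 in Bmal1;CKO. The 2 groups covered the same range. Its log2 fold change was -0.02 (standard error 0.36), and it ran from -0.35 to 0.21 with 1 library left out. The miRNA gene Mir7085, within its span, had 0 reads in every library.

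**Figure D3:**
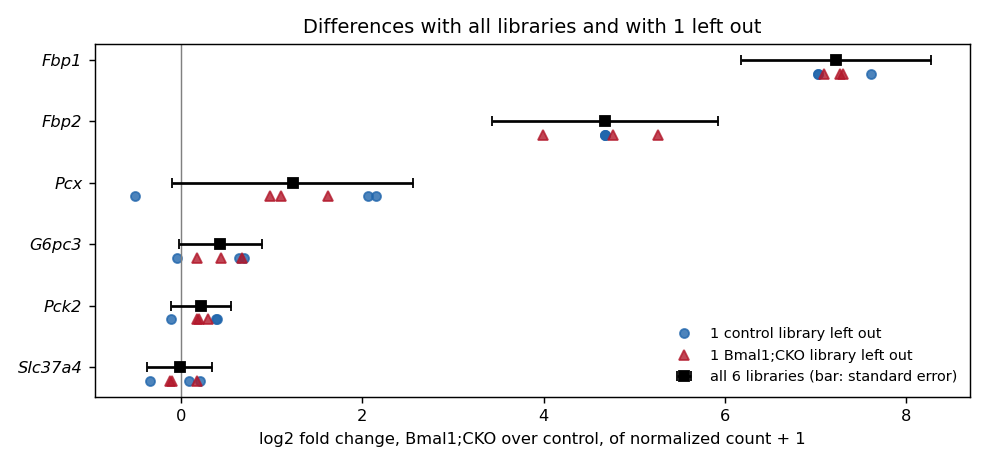
Log2 fold change of normalized count + 1 (Bmal1;CKO over control) of the 6 tested genes, with all libraries (square, with standard error) and with 1 control (blue circle) or 1 Bmal1;CKO (red triangle) library left out. Fbp1 (7.04 to 7.61) and Fbp2 (4.00 to 5.26) stay above 0, whereas Pcx, G6pc3, Pck2 and Slc37a4 cross 0 when a single control library is left out.

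Levels were compared between members per kilobase of exon, as the median of 6 libraries. G6pc3 was the highest at 1847 normalized counts per kilobase, then Slc37a4 at 1434, Pck2 at 551, Pcx at 415, Fbp1 at 51.6, Fbp2 at 3.53 and Pck1 at 0.104. By this length Slc37a4 exceeded Pck2 in 6 of 6 libraries, with ranges that did not overlap. The exon length of Pck2, 7806 bases, joins the exons of 13 annotated transcripts, and its longest coding sequence is 2001 bases. In normalized counts not divided by length, Pck2 (2201 to 4460) and Slc37a4 (2308 to 4964) overlapped. The place of Pck2 in this order thus depends on the length used. The ranges of the other neighbours in this order overlapped, with G6pc3 above Slc37a4 in 4 of 6 libraries and Pck2 above Pcx in 5. The order was the same per kilobase of gene span, a length that includes introns. For Fbp1 and Fbp2 the median over all 6 lies between the groups and stands for no library. Within Bmal1;CKO the order of medians was the same, with Fbp1 at 107 and Fbp2 at 14.6, whereas within control Pck1 (0.271, at 1 read in each library) stood above Fbp1 and Fbp2 (both 0). Among tested genes with a known exon length, G6pc3 stood at percentile 86.0 and Slc37a4 at 83.2. Fbp1 remained a minor transcript even where it was present. In Bmal1;CKO libraries it was at 103 to 137 per kilobase, and G6pc3 was at 12.9 to 19.3 times that level. The ratio of Fbp1 to Pck2, 0.196 to 0.246, rests on the 7806 bases of Pck2 and would be lower with a shorter length. In normalized counts not divided by length, Fbp1 had 174 to 233 in these libraries and Pck2 had 3676 to 4359.

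Of the 6 tested members, 5 had a log2 fold change above 0 (56.6% of all tested genes did) and 1 below. Their median was 0.83, against 0.11 over all tested genes. Setting Fbp1 and Fbp2 at their lower limits could not move this median, since they stay the 2 highest values. This median lies between G6pc3 and Pcx and rested on control library 1. Without it, 4 members were above 0 with a median of 0.24, and the median was 1.37 without control library 2 and 1.40 without control library 3. With all libraries it was 0.25 in edgeR and in DESeq2. The groups did not overlap in 2 of the tested members, Fbp1 and Fbp2. Of all tested genes, 11.2% had groups that did not overlap, 6.62% with Bmal1;CKO higher and 4.54% with it lower. By limma-trend, an empirical Bayes linear model, 0 members had an adjusted p under 0.05, as did 0 of all 20459 genes (0%). At an unadjusted p under 0.05 there were 2 members, the same 2 that passed the filter through Bmal1;CKO alone, and 1007 genes in all (4.92%, of which 3.17% higher and 1.75% lower in Bmal1;CKO). With limma-voom and with the quasi-likelihood test of edgeR, 0 members and 0 genes were called at an adjusted p under 0.05, with 996 and 777 genes at an unadjusted p under 0.05. The Wald test of DESeq2 called 1 member, Fbp1, and 67 genes of 20247 with an adjusted p (0.331%). As Fbp1 entered the list through this contrast, these counts are no test of the list.

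The other genes of glycolysis and gluconeogenesis, listed by function, showed no shift of this size. Of 55 genes in 6 lists, 50 were tested, 32 with a log2 fold change above 0 and 18 below, with a median of 0.12. At an adjusted p under 0.05 there were 0 by limma-trend, and also 0 by edgeR and by DESeq2. At an unadjusted p under 0.05 there were 2, both higher in Bmal1;CKO (3.17% of all tested genes were), a number that ran from 0 to 4 with 1 library left out. Hkdc1, a hexokinase relative, had 1442, 1931 and 2304 normalized counts in control and 2458, 3598 and 3341 in Bmal1;CKO (log2 fold change 0.73, standard error 0.31, adjusted p = 0.883 by limma-trend). Cebpa, a transcription factor of liver, fat and myeloid cells, had 5561, 2580 and 4175 in control and 7430, 6062 and 7184 in Bmal1;CKO (log2 fold change 0.81, standard error 0.32, adjusted p = 0.883 by limma-trend).

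Phosphofructokinase opposes fructose bisphosphatase at the step of Fbp1. Its liver form Pfkl had 15277, 14126 and 23294 normalized counts in control and 18297, 24346 and 19489 in Bmal1;CKO (log2 fold change 0.26, standard error 0.28). Its platelet form Pfkp was at -0.13 (standard error 0.33), and its muscle form Pfkm at 0.84 (standard error 0.92), or -0.35 without control library 1. The groups overlapped in all 3. Fructose 2,6-bisphosphate, the small molecule that inhibits fructose bisphosphatase and stimulates phosphofructokinase, is made and removed by the Pfkfb enzymes. Pfkfb3, the form best known in endothelial cells, had 5276, 2287 and 3046 normalized counts in control and 3904, 4514 and 3979 in Bmal1;CKO (log2 fold change 0.31, standard error 0.34). Pfkfb4 was at 0.90 (standard error 0.40), Pfkfb2 at -0.78 (standard error 0.63), Pfkfb1 at 2.69 (standard error 1.68, or 0.82 without control library 1) and Tigar, which degrades the same molecule, at 0.02 (standard error 0.44). The groups overlapped in each of these 5 genes.

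The reversible steps shared by both directions had 9 genes above 0 and 2 below of 11 tested (median 0.14), among them the aldolase Aldoa at 0.22 (standard error 0.30). Gapdh had 678 to 1838 normalized counts, a value that is uncertain because its reads may be shared with its many processed pseudogenes. The 13 genes that bring in substrate (lactate, alanine, aspartate and glycerol) had 4 above 0 and 9 below (median -0.23), with 0 at an unadjusted p under 0.05. Regulators of the pathway had 7 above 0 and 2 below of 9 tested (median 0.42). The coactivator Ppargc1a was at 1.36 (standard error 0.80) with groups that overlapped. The glucose 6-phosphatases G6pc and G6pc2, specific to liver with kidney and to pancreatic islets, had at most 1 read in any library, and so did the liver regulator Hnf4a.

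**Figure D4:**
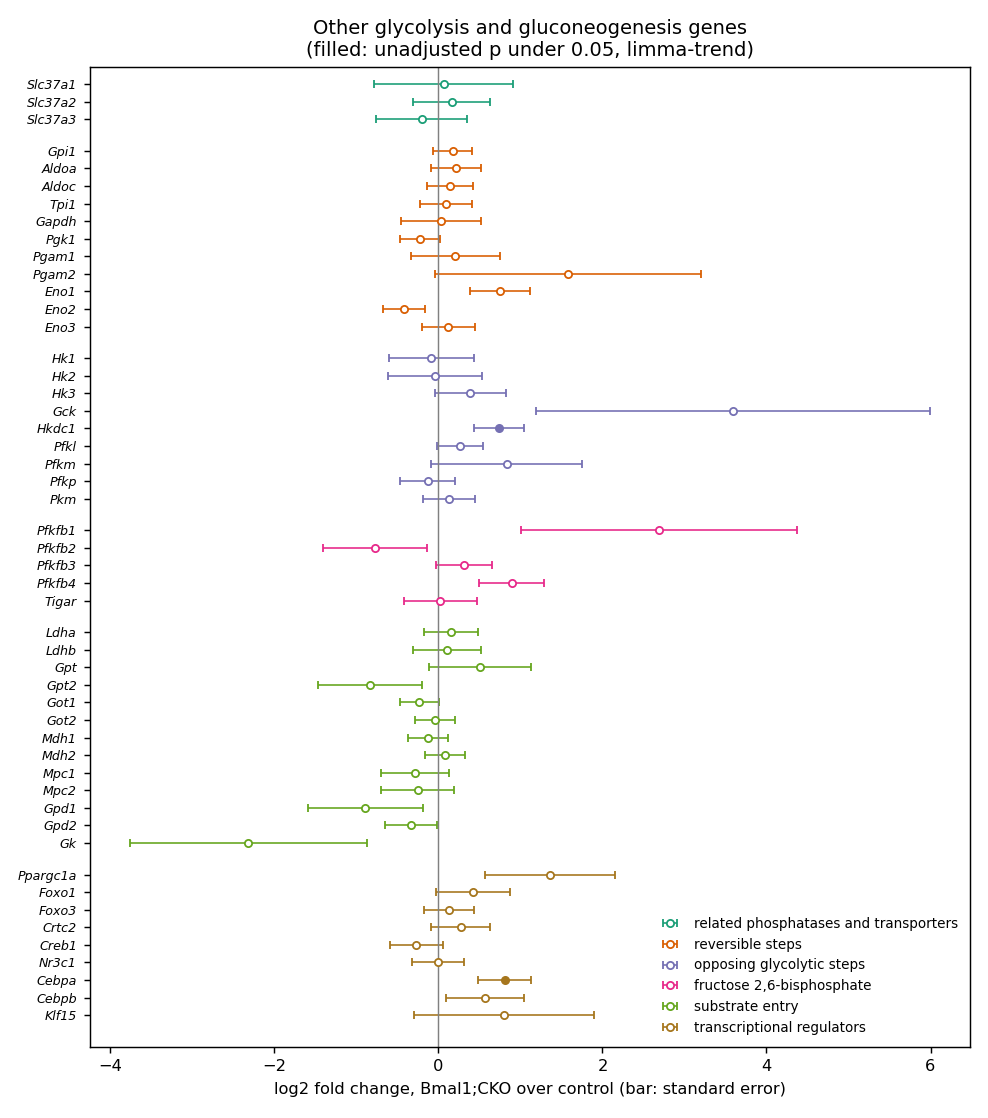
Log2 fold change (Bmal1;CKO over control, with standard error) of the 50 tested genes in the 6 lists, coloured by list, with filled points at an unadjusted p under 0.05 by limma-trend. The 2 filled points are Hkdc1 (0.73) and Cebpa (0.81), and the medians of the lists lie between -0.23 and 0.42.

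The genes most like Fbp1 over the 6 libraries were found by Pearson's coefficient of log2(normalized count + 1). They were Gm12522 (0.999), Spr-ps1 (0.997), Klk1b22 (0.995), Rnf138rt1 (0.994) and Smim41 (0.994). All 5 had at most 2 reads in any control library and at least 24 in every Bmal1;CKO library, and they lie on chromosomes 3, 6, 7, X and 15. Klk1b22, a kallikrein-related peptidase gene, had 390, 523 and 316 normalized counts in libraries 4, 5 and 6. With 6 libraries in 2 groups, the coefficient mostly reflects the difference between the groups, and 104 genes exceeded 0.95. Fbp2 had 0.958, at place 90 of 20458. The other tested members had 0.361 (Pck2), 0.291 (G6pc3), 0.229 (Pcx) and -0.0133 (Slc37a4).

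Of the endothelial markers, 13 of 14 had a log2 fold change below 0 (median -0.50, from -0.86 to -0.16 with 1 library left out). Of the markers of microglia and macrophages, 8 of 9 were above 0 (median 0.40, from 0.07 to 0.74). All 6 tested markers of Muller glia were above 0 (median 0.43, or 0.079 without control library 1), and 10 of 11 rod markers were below 0 (median -0.30, or 0.076 without library 4). At an adjusted p under 0.05 by limma-trend there were 0 markers in any list, and at an unadjusted p under 0.05 there was 1 of rods and 1 of Muller glia. The part of these differences in the values of Fbp1 and Fbp2 was not tested. The summed levels of the lists overlapped between the groups. The summed microglia and macrophage markers ran from 1386180 to 4103350 normalized counts in control and from 2013410 to 3985840 in Bmal1;CKO. Control library 1 had the highest sum. By the median of that list, library 6 was the highest (118104, against 100484 in control library 1). The rod sums (706406 to 908379 in control, 480204 to 888474 in Bmal1;CKO), the Muller glia sums (36849 to 44322 and 42112 to 57375) and the erythroid sums (1257 to 19008 and 1438 to 9934) overlapped as well. So did those of endothelial cells (186811 to 375777 and 115655 to 240091), pericytes (2626 to 42930 and 3861 to 6906) and astrocytes (508 to 5000 and 937 to 2091). Of 6 hepatocyte markers, 1 had 10 or more reads in every library and 5 had 0 reads in at least 1 library, and Alb had 0 reads in 4 of the 6 libraries. The cell of origin of the Fbp1 reads was not tested.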

How the data were processed

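The authors ran FastQC and Trimmomatic on the reads, used Bowtie for alignment to mm10 (GRCm38), and made gene counts with featureCounts, which DESeq2 normalized. The Bowtie version and the use of strand are not given in the sources used here. The authors' deposited signal is the count of a library divided by its size factor. Their fold changes and p-values in the same table were not used. Column numbers differ from those of the labels, so each column served as a replicate of its genotype. Each column divided by its smallest step gave whole reads (within 0.01 read) for 100% of values, with size factors of 0.711 to 1.40.

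Genes that reached 10 reads in 3 or more libraries were tested with limma-trend (limma 3.58.1, R 4.3.3) on log2(normalized count + 1), genotype as the only term, with Benjamini-Hochberg adjustment. As the table holds normalized counts, edgeR 4.0.16, DESeq2 1.42.0 and limma-voom ran on the recovered reads as alternatives. The tests were also run on simulated counts, whose outcome is not reported here and lends the tests no support in this text. For a library at 0, 3 reads served as the floor. An exact permutation test of 3 against 3 cannot go below 0.1 and was not used. Coordinates and exon lengths are from GENCODE M21 (GRCm38), where 55227 of the identifiers were found, and promoters from RefSeq (GRCm38.p6). Named are the 7 members, Arntl, the 5 genes most like Fbp1, overlapping genes, the phosphofructokinase and Pfkfb genes with Tigar, and listed genes at an unadjusted p under 0.05. Others were chosen after their values were seen. Gyk was matched as Gk, and Aldoa by the identifier ENSMUSG00000030695. The p-values rest on the spread between libraries, 3 a group, given by the authors as n = 3 per genotype. That spread takes in amplification and cell mixture as well as animals. The members and lists were chosen with earlier results of these data known. Python 3.11.15, pandas 2.3.3, scipy 1.17.1, Biopython 1.88 and matplotlib 3.10.9 were used.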

Additional observations from a re-analysis of the deposited data

How the results depend on the processing

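No paired analysis was possible because the columns are numbered 1 to 6 and share no replicate number between the groups. The log2 fold change of Fbp1 was 8.01 with 0.5 and 4.30 with 10 added to the normalized count, 6.46 with TMM scaling in limma-trend, 8.74 in edgeR with TMM or with DESeq2 size factors, 8.15 in limma-voom and 9.20 in DESeq2, and 7.04 to 7.61 with 1 library left out. That of Fbp2 was 5.64 with 0.5 and 1.86 with 10 added, 8.07 in edgeR with TMM, 8.09 with DESeq2 size factors, 5.64 in limma-voom and 7.55 in DESeq2, and 4.00 to 5.26 with 1 library left out. DESeq2 called 1 member and 67 genes of 20247 (0.331%) at an adjusted p under 0.05. That member was Fbp1, which entered the list through this contrast and passed the read filter through Bmal1;CKO alone. Of all genes, 1 was called when every gene with a read was tested and 1 with at least 10 reads in every library, and 0 to 6 with 1 library left out (6 without control library 1). Leaving out 1 library gave 444 (library 5) to 2444 (control library 3) genes at an unadjusted p under 0.05, against 1007. Of these 1007, 648 were higher, against 389 of 777 in edgeR with TMM, where the median of all genes was -0.03 in place of 0.11, and 533 of 1211 in DESeq2. The other pathway genes at an unadjusted p under 0.05 numbered 0 to 4 with 1 library left out, and 1 in edgeR with TMM, in limma-voom and with at least 10 reads in every library. The sign turned for Arntl (0.029 without control library 2, lowest -0.49), Pfkm (-0.35 without control library 1, highest 1.525), Pfkp (0.083 without control library 3 and 0.026 without library 4, lowest -0.45) and Tigar (-0.40 without control library 1, -0.12 without library 5, highest 0.26, then -0.076 and -0.071 in edgeR with TMM and DESeq2 size factors, -0.028 in limma-voom and -0.071 in DESeq2). Among the members it turned for Pcx (-0.51) and G6pc3 (-0.04) without control library 1, and for Pck2 (-0.11) without control library 2. Slc37a4 turned to 0.083 without control library 1, 0.21 without control library 3 and 0.17 without library 4. The median of the rod markers turned to 0.076 without library 4. Those of pericytes, astrocytes, erythroid cells and hepatocytes turned in some settings as well. The cause was not tested. Fbp1, Fbp2 and Pck1 have no value with at least 10 reads in every library, and Pck1 was tested only with every gene with a read. With 3 libraries a group, and 1 read or none in control, depth limits the size of the Fbp1 and Fbp2 differences.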
